A study of Solanum lycopersicum with 6 samples.

Results

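The exodermis is the outer cortical layer of the tomato root that lays down suberin. The genes described here were linked to it in single-cell data and were not set aside as named suberin genes. They were taken from the study's list of 50 loci that followed the exodermal trajectory in single-cell data, minus 12 loci named as suberin enzymes, regulators or a transporter. Of those 12 loci, 9 were on the list, which left 41 genes. Only named loci were removed. Enzyme classes that the paper places in suberin synthesis, such as ketoacyl-CoA synthases and GDSL esterase/lipases, therefore remain among the 41. All 41 matched 1 of the 34688 gene models in the count table, and each is called by its tomato locus and by the annotation in that list.

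The data were 6 bulk RNA-seq libraries of wild-type root tips of the cultivar M82, 3 from protoplasted roots and 3 from whole roots. Protoplasted roots had been digested for 2 h at 25 °C with cellulases, Macerozyme and pectolyase in mannitol, then filtered and spun, so that free cells were sampled. Whole roots were labelled as receiving no treatment, and no mock incubation was named for them, so enzyme, mannitol, time and cell recovery cannot be told apart. Both groups used tips of about 3 cm from primary roots of 7-day-old seedlings, and each sample pooled 50 to 100 roots. Libraries held between 5198513 and 5790082 estimated counts. The level used throughout is normalized CPM (estimated counts scaled to library size), which was not divided by length because the library kit reads each transcript once, near its 3′ end.

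The exodermis lies under the epidermis, and in tomato it is the exodermis, not the endodermis, that becomes suberized in these roots. Suberin is a polyester of long-chain fatty acid derivatives and ferulic acid placed between the plasma membrane and the primary wall. Making such a barrier takes more than its biosynthetic enzymes: lipid transfer proteins carry lipids outside the cell, laccases and other oxidases act on phenolics in the wall, xyloglucan endotransglucosylases cut and rejoin wall polymers, and CASP-like proteins belong to the membrane family that positions the Casparian strip in Arabidopsis. PELPK, PELP and hydroxyproline-rich proteins are secreted, proline-rich proteins of the wall.

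Almost the whole set was lower in protoplasted than in whole roots. Of the 41 genes, 40 passed the filter on low counts, 39 were lower at an adjusted p under 0.05, 0 were higher and 1 was not called (edgeR's quasi-likelihood test, Benjamini-Hochberg adjusted over 15966 genes). Over all genes tested, 18.7% were lower by the same rule. A log2 fold change under -2 was also reached by 35 of the 40 genes, against 9.78% of all genes tested. In 39 of the 40, every protoplasted library was below every whole-root library, which held for 25.6% of all genes tested. The median log2 fold change (protoplasted over whole) of the 40 was -5.68, against 0.02 over all genes tested, with a range of -8.07 to -0.04. These counts describe the list and are not a test of it. The study had removed protoplast-induced genes, found in these same libraries, before its trajectory was drawn, so the list could not hold strongly induced genes, and 0 of the 41 were on that table. Most genes passed the filter through the whole-root libraries: 11 of the 41 had at least 10 counts in every library.

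**Figure D1:**
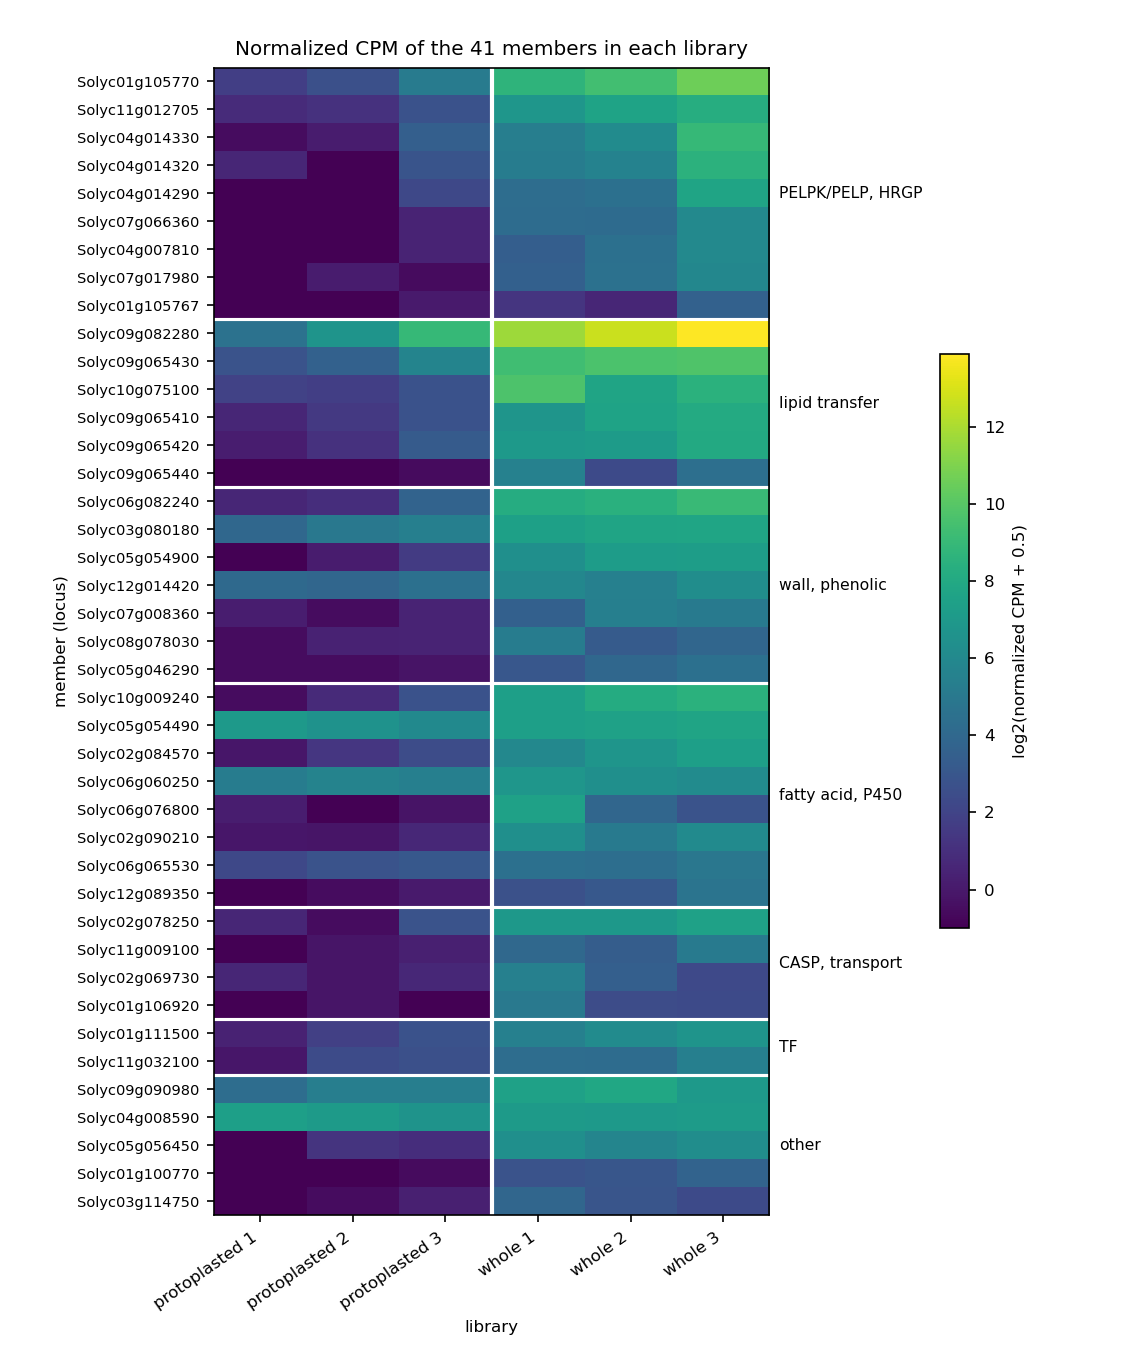
Heat map of log2(normalized CPM + 0.5) for each of the 41 genes (rows, grouped by family and sorted by their mean in whole roots) in protoplasted libraries 1 to 3 (left) and whole-root libraries 1 to 3 (right). The left columns are dark in most rows, with 1 row, the pyruvate dehydrogenase gene Solyc04g008590, at similar levels on both sides.

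Together the 41 genes took 0.0395%, 0.0486% and 0.0983% of all estimated counts in protoplasted libraries 1, 2 and 3, against 0.874%, 1.16% and 2.31% in whole-root libraries 1, 2 and 3. The means were 0.0622% ± 0.0317 in protoplasted and 1.45% ± 0.761 in whole roots (SD, n = 3 each), a 23.3-fold lower share. The groups did not overlap, and within each group the share was highest in replicate 3. The lipid transfer gene Solyc09g082280 alone held 41.8% to 66.3% of these counts in whole roots, and without it the mean shares were 0.0421% in protoplasted and 0.591% in whole roots, a 14.0-fold lower share. Genes with no count numbered 13, 8 and 1 in protoplasted libraries 1, 2 and 3, against 0 in each whole-root library. In bulk libraries, fewer cells of a type and less RNA per cell cannot be told apart. The 9 suberin loci of the same list, used here as markers of mature exodermis, were all lower, with a median log2 fold change of -6.19 (range -7.42 to -3.79). Their summed share of counts was 0.00239% ± 0.00214 in protoplasted and 0.201% ± 0.071 in whole roots (SD, n = 3 each), and the suberin gene Solyc04g011600 had 0 counts in protoplasted libraries 1 and 2. SlASFT (Solyc03g097500), the feruloyl transferase of suberin, had 1.88, 3.29 and 15.8 CPM in protoplasted libraries 1, 2 and 3, against 564, 596 and 944 CPM in whole-root libraries 1, 2 and 3. The part of exodermal cell recovery in the values of the 41 genes was not tested.

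**Figure D2:**
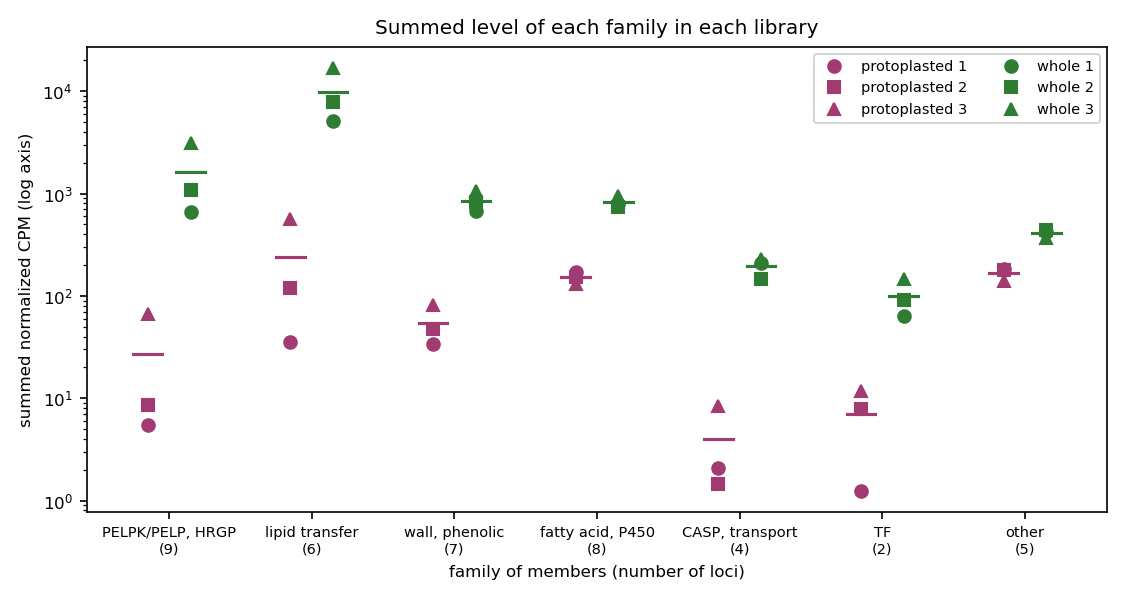
Summed normalized CPM of each family (log axis) in each library, protoplasted left of whole roots, with a bar at the mean of 3 libraries and a symbol for each replicate number. Every family sum was lower in each protoplasted library than in each whole-root library, from 2.43-fold for the mixed last family to 60.6-fold for the PELPK, PELP and hydroxyproline-rich genes.

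The family of 9 genes for secreted PELPK, PELP and hydroxyproline-rich proteins fell throughout. All 8 that were tested were lower, with log2 fold changes from -6.76 to -5.66 and a median of -5.96. This range was set in part by replicate 3: without whole replicate 3 it ran from -5.89 to -3.80, and without protoplasted replicate 3 from -11.85 to -6.57. Summed over the family, levels were 5.43, 8.64 and 66.5 CPM in protoplasted libraries 1, 2 and 3, against 666, 1075 and 3135 CPM in whole-root libraries 1, 2 and 3. Replicate 3 was the highest library of both groups, and the groups were still far apart.

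The most abundant gene of this family was Solyc01g105770, listed as an IgA FC receptor and, in the study's co-expression table, as a leguminosin secreted peptide. It had 2.92, 5.76 and 35.9 CPM in protoplasted libraries 1, 2 and 3, against 414, 674 and 1538 CPM in whole-root libraries 1, 2 and 3 (log2 fold change -5.87 ± 0.97 SE, edgeR adjusted p = 0.00265). The groups did not overlap, although replicate 3 stood above the other two in each. Solyc11g012705, of the pollen Ole e allergen and extensin family, had 1.25, 1.65 and 6.16 CPM in protoplasted libraries 1, 2 and 3, against 112, 197 and 312 CPM in whole-root libraries 1, 2 and 3 (log2 fold change -6.06 ± 0.65 SE, edgeR adjusted p = 0.000567). Both genes were lowest in replicate 1 and highest in replicate 3 of each group. Without protoplasted replicate 3 their log2 fold changes were -7.68 and -7.17, and without whole replicate 3 that of Solyc01g105770 was -5.18.

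PELPK proteins are named for a repeated pentapeptide, proline, glutamate, leucine, proline and lysine, first described in Arabidopsis. The 3 PELPK genes carried neighbouring locus numbers on chromosome 4. Solyc04g014290 (PELPK1-like) had 0, 0 and 4.17 CPM in protoplasted libraries 1, 2 and 3, against 19.5, 22.0 and 208 CPM in whole-root libraries 1, 2 and 3 (log2 fold change -5.80 ± 1.37 SE). Solyc04g014320 (PELPK2-like) had 1.04, 0 and 6.88 CPM in protoplasted libraries 1, 2 and 3, against 36.8, 48.1 and 380.1 CPM in whole-root libraries 1, 2 and 3 (log2 fold change -5.81 ± 1.29 SE). Solyc04g014330 (also PELPK2-like) had 0.209, 0.617 and 10.9 CPM in protoplasted libraries 1, 2 and 3, against 40.6, 71.5 and 499 CPM in whole-root libraries 1, 2 and 3 (log2 fold change -5.66 ± 1.35 SE). All 3 stood out in replicate 3 of both groups, and in whole roots that library was 10.3 to 12.3 times the lowest one. Their edgeR adjusted p-values were 0.00911 to 0.0125. Leaving out protoplasted replicate 2 raised these to 0.0579 for Solyc04g014290 and 0.0622 for Solyc04g014330, both above the threshold. Replicate 3 decided the size of these falls: for Solyc04g014290, Solyc04g014320 and Solyc04g014330 the log2 fold changes were -3.81, -3.95 and -3.80 without whole replicate 3, and -11.85, -8.19 and -8.89 without protoplasted replicate 3, where Solyc04g014290 had no protoplasted count left. Counts of these genes were divided among similar transcripts in up to 5 of the 6 libraries, so the split between them is uncertain. Counted as a single locus, they had 1.25, 0.617 and 21.9 CPM in protoplasted libraries 1, 2 and 3, against 96.8, 142 and 1088 CPM in whole-root libraries 1, 2 and 3 (log2 fold change -5.77 ± 1.41 SE, edgeR adjusted p = 0.0137).

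The gene that was not tested belongs here too. Solyc01g105767, a hydroxyproline-rich glycoprotein gene beside Solyc01g105770 on chromosome 1, had 0, 0 and 0.543 CPM in protoplasted libraries 1, 2 and 3, against 1.92, 0.999 and 11.6 CPM in whole-root libraries 1, 2 and 3. The groups did not overlap. From 3 counts in protoplasted and 85 in whole roots, the ratio was 23.8-fold lower in protoplasted roots (95% exact interval 7.88 to 118, counting error only). Summed with Solyc01g105770, the pair had a log2 fold change of -5.86 ± 0.98 SE (edgeR adjusted p = 0.0027). The remaining genes of the family, Solyc07g017980 and Solyc04g007810 (both PELP) and Solyc07g066360 (listed as the receptor-like kinase PERK2 and, in the co-expression table, as a leguminosin secreted peptide), were at 10.4 to 64.3 CPM in whole roots. Each was at under 1 CPM in every protoplasted library, and their log2 fold changes were -6.76, -6.53 and -6.58. Without whole replicate 3 these were -5.89, -5.53 and -5.73. Without protoplasted replicate 3, Solyc04g007810 and Solyc07g066360 had no protoplasted count left and fitted values of -10.48 and -10.53, and without protoplasted replicate 2 Solyc07g017980 was at -8.05.

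The 6 lipid transfer genes were the most abundant family in whole roots and in protoplasted library 3. In protoplasted libraries 1 and 2 they were below the fatty acid and P450 genes (169 and 154 CPM) and the genes with other annotations (184 and 179 CPM). Pooled over the 3 libraries of each group, the lipid transfer genes made up 71.3% of the summed CPM of the 41 genes in whole roots and 37.0% in protoplasted roots. The protoplasted figure was carried by replicate 3: the 41 genes summed to 432, 520 and 1009 CPM in protoplasted libraries 1, 2 and 3. All 6 were lower, with log2 fold changes from -8.07 to -5.04 and a median of -5.69. Their summed level was 35.7, 120.3 and 569 CPM in protoplasted libraries 1, 2 and 3, against 5081, 7896 and 16796 CPM in whole-root libraries 1, 2 and 3, which is 41.1-fold lower.

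Solyc09g082280 was the most abundant of all 41 genes in whole roots, where its mean level was at percentile 99.99 of the genes tested. It had 24.2, 102 and 496 CPM in protoplasted libraries 1, 2 and 3, against 3307, 6545 and 15018 CPM in whole-root libraries 1, 2 and 3 (log2 fold change -5.32 ± 1.09 SE, edgeR adjusted p = 0.00665). The libraries spread 4.54-fold within whole roots, and the groups did not overlap. Solyc10g075100, a non-specific lipid transfer gene, had a different order: its values were 3.34, 2.88 and 6.16 CPM in protoplasted libraries 1, 2 and 3, against 856, 203 and 359.7 CPM in whole-root libraries 1, 2 and 3 (log2 fold change -6.82 ± 0.64 SE). It was highest in whole-root replicate 1, the library where Solyc09g082280 was lowest among whole roots. Without that library the log2 fold change of Solyc10g075100 was -6.07, and that of Solyc09g082280 was -4.57 without whole replicate 3 and -7.07 without protoplasted replicate 3.

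The other 4 lipid transfer genes have consecutive locus numbers on chromosome 9. Solyc09g065430 had 6.47, 11.7 and 51.6 CPM in protoplasted libraries 1, 2 and 3, against 631, 803 and 868 CPM in whole-root libraries 1, 2 and 3 (log2 fold change -5.04 ± 0.73 SE). Solyc09g065410 had 1.04, 2.26 and 6.34 CPM in protoplasted libraries 1, 2 and 3, against 107, 195 and 269 CPM in whole-root libraries 1, 2 and 3 (log2 fold change -5.85 ± 0.62 SE). Solyc09g065420 had 0.626, 1.65 and 9.05 CPM in protoplasted libraries 1, 2 and 3, against 134, 145 and 259.6 CPM in whole-root libraries 1, 2 and 3 (log2 fold change -5.53 ± 0.77 SE). These 3 were highest in replicate 3 of both groups, and without protoplasted replicate 3 their log2 fold changes were -6.43, -6.86 and -7.31. The fourth, Solyc09g065440, annotated as a seed storage and lipid transfer superfamily protein, had 0, 0 and 0.181 CPM in protoplasted libraries 1, 2 and 3, against 45.1, 4.50 and 21.4 CPM in whole-root libraries 1, 2 and 3. It was highest in whole-root replicate 1 and spread 10.0-fold among whole roots. Its fitted log2 fold change, -8.07 ± 1.22 SE, was the lowest of the 40 genes but rested on 1 count in protoplasted roots, from which the ratio was 364-fold lower (95% exact interval 65.0 to 14405, counting error only). The fitted value was -7.19 without whole replicate 1 and -10.06 without protoplasted replicate 3, which held that count. As a single locus the 4 genes had 8.14, 15.6 and 67.2 CPM in protoplasted libraries 1, 2 and 3, against 918, 1148 and 1419 CPM in whole-root libraries 1, 2 and 3 (log2 fold change -5.25 ± 0.75 SE, edgeR adjusted p = 0.00143).

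**Figure D3:**
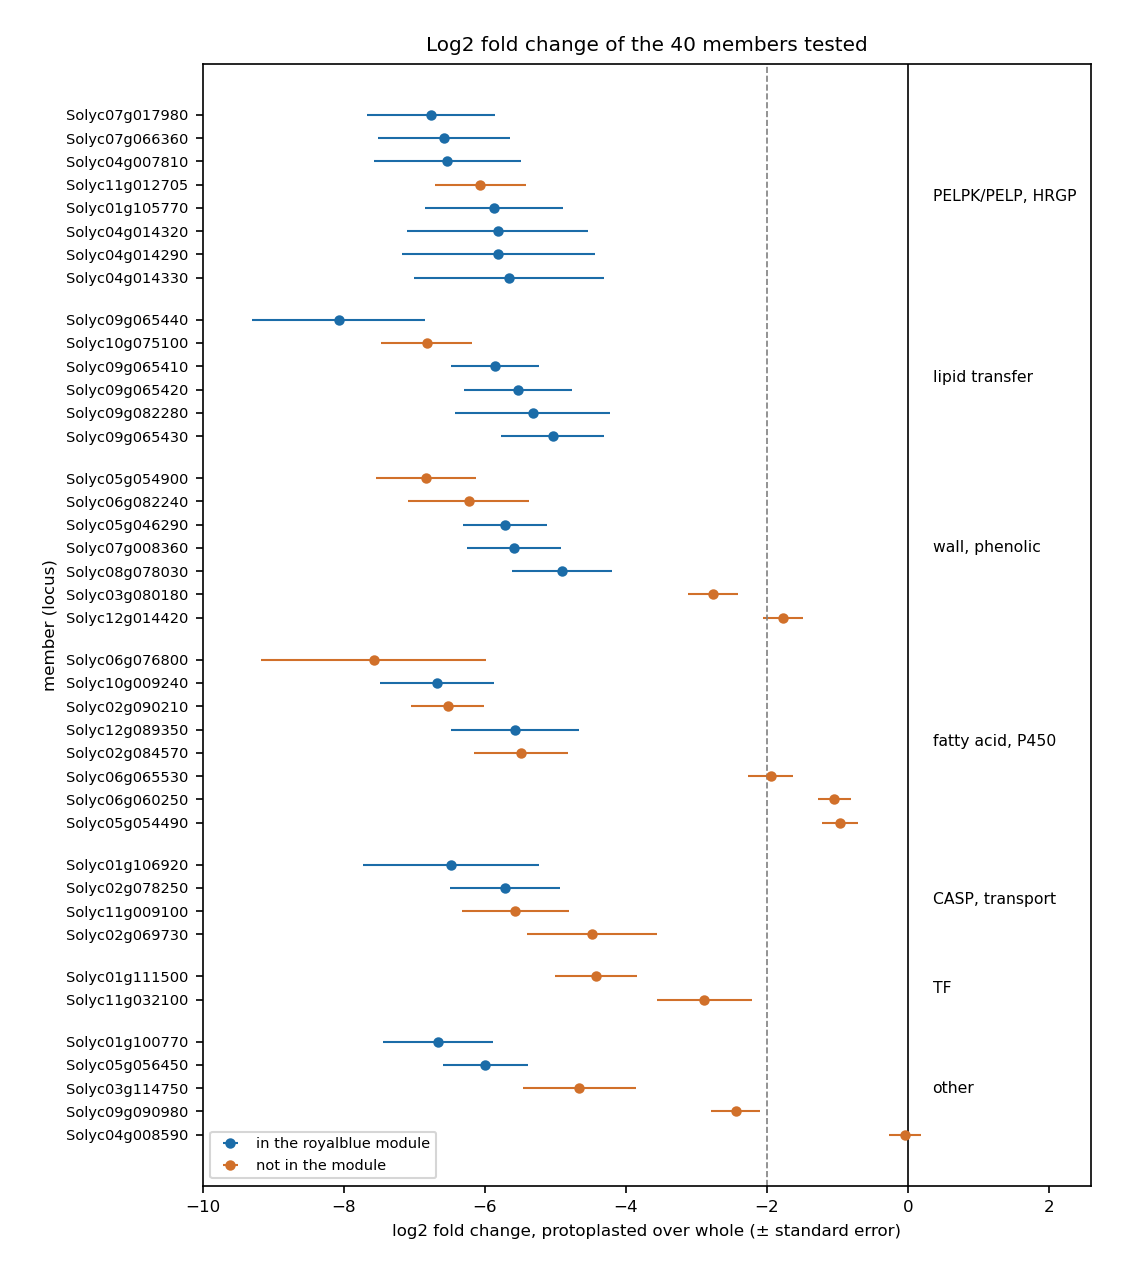
Log2 fold change, protoplasted over whole roots, with its standard error for the 40 genes tested (rows, by family), coloured by membership in the study's royalblue co-expression module; the dashed line marks -2. With all 6 libraries, 32 genes lie under -4 and 8 over -3, and none of the 8 belongs to the module. The empty stretch between them, from -4.42 to -2.89, holds up to 4 genes in other settings.

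Among the 7 genes for enzymes and proteins of the wall and of phenolics, all 7 were lower and 6 had a log2 fold change under -2 (median -5.58). The laccase gene Solyc06g082240, whose family oxidizes phenolics in the wall, had 1.04, 1.44 and 13.0 CPM in protoplasted libraries 1, 2 and 3, against 297, 354 and 542 CPM in whole-root libraries 1, 2 and 3 (log2 fold change -6.23 ± 0.86 SE, edgeR adjusted p = 0.00131). Its counts were divided among similar transcripts in 5 of the 6 libraries, so its level is less certain. Solyc05g054900, a blue copper protein gene, had 0, 0.617 and 2.54 CPM in protoplasted libraries 1, 2 and 3, against 82.8, 148 and 152 CPM in whole-root libraries 1, 2 and 3 (log2 fold change -6.83 ± 0.71 SE). Each was lowest in replicate 1 of both groups, and without protoplasted replicate 3 their log2 fold changes were -8.33 and -8.62. The putative O-methyltransferase gene Solyc03g080180, of a family that methylates phenolics and other small molecules, had 15.2, 30.0 and 42.2 CPM in protoplasted libraries 1, 2 and 3, against 175, 206 and 213 CPM in whole-root libraries 1, 2 and 3 (log2 fold change -2.76 ± 0.36 SE). It kept 7.70% to 21.3% of its whole-root mean, more than the laccase gene, which kept 0.262% to 3.28%. Solyc12g014420, a glucan endo-glucosidase gene, fell least in this family, with a log2 fold change of -1.77. The other 3, Solyc05g046290 (xyloglucan endotransglucosylase), Solyc07g008360 (listed as a 4-coumarate:CoA ligase, the enzyme that activates hydroxycinnamic acids, but as a ribosomal protein in the co-expression table) and Solyc08g078030 (a transferase), had log2 fold changes of -5.71, -5.58 and -4.91, the last of which was -4.12 without whole replicate 1.

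Of the 8 genes for fatty acid and lipid enzymes and cytochromes P450, all 8 were lower, but over a wide range, from -7.57 to -0.96 (median -5.53), and 5 were under -2. Solyc10g009240 encodes a 3-ketoacyl-CoA synthase, the class of enzyme that lengthens fatty acyl chains, and was not among the suberin loci set aside. It had 0.209, 1.23 and 6.16 CPM in protoplasted libraries 1, 2 and 3, against 166, 281 and 359 CPM in whole-root libraries 1, 2 and 3 (log2 fold change -6.67 ± 0.81 SE, edgeR adjusted p = 0.00082), and without protoplasted replicate 3 the log2 fold change was -8.52. The cytochrome P450 gene Solyc06g076800 had 0.626, 0 and 0.362 CPM in protoplasted libraries 1, 2 and 3, against 179.6, 14.3 and 6.57 CPM in whole-root libraries 1, 2 and 3. Its whole-root libraries spread 27.4-fold, the widest of the 41 genes, with replicate 1 highest. Its log2 fold change was -7.57 ± 1.59 SE (edgeR adjusted p = 0.00728), and limma-voom did not call it (adjusted p = 0.127). Without whole replicate 1 the log2 fold change was -4.90, and without protoplasted replicate 1 it was -8.32.

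The 2 genes with the smallest falls that were called belong to this family. Solyc05g054490, annotated as a steroid dehydrogenase, had 125, 94.4 and 66.6 CPM in protoplasted libraries 1, 2 and 3, against 167, 185 and 205 CPM in whole-root libraries 1, 2 and 3 (log2 fold change -0.96 ± 0.26 SE, edgeR adjusted p = 0.0206). It was highest in protoplasted replicate 1 and lowest in whole-root replicate 1, and without protoplasted replicate 2, whole replicate 2 or whole replicate 3 the adjusted p was 0.0674, 0.0599 or 0.0508. The aldehyde dehydrogenase gene Solyc06g060250 had 38.2, 49.8 and 42.7 CPM in protoplasted libraries 1, 2 and 3, against 113, 83.9 and 72.2 CPM in whole-root libraries 1, 2 and 3 (log2 fold change -1.04 ± 0.24 SE, edgeR adjusted p = 0.0103). Aldehyde dehydrogenases oxidize aldehydes to acids in many pathways. The 3 GDSL esterase/lipase genes, a large family that includes cutin and suberin polyester synthases and hydrolases in other plants, differed widely: Solyc02g090210 had a log2 fold change of -6.52 ± 0.51, Solyc12g089350 one of -5.57 ± 0.91 and Solyc06g065530 one of -1.94 ± 0.32 (SE). The second P450 gene, Solyc02g084570, had one of -5.48. Without protoplasted replicate 3 those of Solyc02g090210, Solyc12g089350 and Solyc02g084570 were -7.20, -6.77 and -6.52, and without whole replicate 3 that of Solyc12g089350 was -4.62.

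The 4 genes for CASP-like proteins and transporters were all lower, with log2 fold changes from -6.47 to -4.48. The CASP-like gene Solyc02g078250 had 1.04, 0.206 and 6.52 CPM in protoplasted libraries 1, 2 and 3, against 119.5, 119.8 and 185 CPM in whole-root libraries 1, 2 and 3 (log2 fold change -5.71 ± 0.78 SE, edgeR adjusted p = 0.00126). The ABC transporter-like gene Solyc11g009100, of a family that moves lipids and other compounds across membranes, had 0, 0.411 and 0.724 CPM in protoplasted libraries 1, 2 and 3, against 15.5, 9.99 and 33.4 CPM in whole-root libraries 1, 2 and 3 (log2 fold change -5.56 ± 0.75 SE). Neither gene's groups overlapped. Without protoplasted replicate 3 their log2 fold changes were -7.82 and -6.45, and without whole replicate 3 that of Solyc11g009100 was -4.95. The second CASP-like gene, Solyc02g069730, and the nucleobase-ascorbate transporter gene Solyc01g106920 were highest in whole-root replicate 1, at 43.5 and 31.5 CPM, and had log2 fold changes of -4.48 and -6.47. Without that library these were -3.11 and -4.97, and without protoplasted replicate 2 that of Solyc01g106920 was -9.31. Limma-voom did not call Solyc02g069730 (adjusted p = 0.0713).

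Both transcription factor genes were lower. Solyc01g111500, an R2R3 MYB gene of the family that holds many regulators of phenolic and suberin synthesis, had 0.835, 3.09 and 6.16 CPM in protoplasted libraries 1, 2 and 3, against 44.1, 72.6 and 104 CPM in whole-root libraries 1, 2 and 3 (log2 fold change -4.42 ± 0.59 SE, edgeR adjusted p = 0.00115). It too was lowest in replicate 1 and highest in replicate 3 of each group, and leaving out protoplasted replicate 3 gave a log2 fold change of -5.24. Solyc11g032100 (tomato AGAMOUS-like, of the MADS-box family) had a smaller fall, with a log2 fold change of -2.89, and its highest protoplasted library was at 5.61 CPM against 18.3 CPM in its lowest whole-root library.

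The 5 genes with other annotations included the one gene that was not called. Solyc04g008590, annotated as a pyruvate dehydrogenase, part of the complex that makes acetyl-CoA, had 165, 137 and 98.7 CPM in protoplasted libraries 1, 2 and 3, against 136, 134 and 142 CPM in whole-root libraries 1, 2 and 3. The groups overlapped (log2 fold change -0.04 ± 0.23 SE, edgeR adjusted p = 0.902). Its whole-root spread was the narrowest of the 41 genes (1.06-fold), and it was the most abundant of them in protoplasted libraries 1 and 2, with 38.1% and 26.3% of their counts. The pathogenesis-related gene Solyc09g090980 had 19.6, 40.5 and 40.2 CPM in protoplasted libraries 1, 2 and 3, against 183, 236 and 127 CPM in whole-root libraries 1, 2 and 3 (log2 fold change -2.44 ± 0.35 SE, edgeR adjusted p = 0.00149). It was one of only 2 genes, with Solyc07g008360, highest in whole-root replicate 2. The aspartyl protease gene Solyc05g056450, the gar2-like gene Solyc03g114750 and Solyc01g100770, a gene with a domain of unknown function, had log2 fold changes of -5.99, -4.66 and -6.66. Solyc01g100770 was at 6.39 to 13.0 CPM in whole roots and had 1 count in all protoplasted libraries, 134-fold lower by counts (95% exact interval 23.6 to 5310.4, counting error only). Without protoplasted replicate 3 the fitted log2 fold changes of Solyc03g114750 and Solyc01g100770 were -6.16 and -8.64.

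The fold changes covered a wide range. Of the 40 genes tested, 32 had a log2 fold change between -8.07 and -4.42 and 8 one between -2.89 and -0.04. The empty stretch between these ranges was bounded by the values of its own edge genes, so a slight shift of 1 of them counts as filling it. In 15 of 16 alternatives at least 1 gene lay in it, with at most 4 in any of them. Within the narrower stretch from -4 to -3, at least 1 gene lay in 8 of the 16 alternatives. Without whole replicate 3 the 3 PELPK genes lay there, and without whole replicate 1 Solyc02g069730 did (-3.11). The 8 genes with the smaller falls were Solyc11g032100, Solyc03g080180, Solyc09g090980, Solyc06g065530, Solyc12g014420, Solyc06g060250, Solyc05g054490 and Solyc04g008590. Their median level was 31.3 CPM in protoplasted and 114 CPM in whole roots. For the 32 genes these medians were 1.08 CPM in protoplasted and 72.8 CPM in whole roots. The whole-root libraries of the 8 genes spread 1.06-fold to 2.35-fold (median 1.51) from lowest to highest, and those of the 32 genes 1.38-fold to 27.4-fold (median 3.46). This division was made after the values were seen and describes the values with all 6 libraries only. Over the 40 genes, the log2 mean CPM in whole roots and the log2 fold change had a Pearson correlation of 0.05 and a Spearman correlation of 0.00. The fold change itself contains the whole-root level, and 7 of the 40 genes had at most 3 counts in each protoplasted library. The 2 coefficients therefore cannot show whether level and fall are related. These correlations are across genes that share the same 6 libraries.

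A feature that the choice of genes did not use was membership in the royalblue module, a set of genes co-expressed in other tomato root data and rich in suberin genes. Of the 41 genes, 21 belonged to it. All 21 were lower with a log2 fold change under -2, and they ranged from -8.07 to -4.91 (median -5.81), with the PELPK genes at up to -3.80 without whole replicate 3. The 20 genes outside the module included the untested Solyc01g105767. The 19 tested among them had a median of -4.48 and a range of -7.57 to -0.04, with 18 lower and 14 under -2. All 8 genes over -3 were outside the module, and so were large falls such as those of the blue copper protein gene Solyc05g054900 and the lipid transfer gene Solyc10g075100. The 113 tested module genes neither on the trajectory list nor among the suberin loci set aside had a median of -3.65. Of these, 87 (77.0%) were lower, against 18.7% of all genes tested, and 4 were higher. The difference between genes inside and outside the module was not tested.

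Over all genes tested, 18.7% were lower and 9.78% also had a log2 fold change under -2. Genes of some of the same families in the royalblue module, not among the 41, were set beside the 41 genes. Chosen by annotation from a module rich in suberin genes, these loci do not show how the families behave outside it. Of 19 such loci, 16 were in the count table, 14 were tested and all 14 were lower, 13 of them under -2, with a median of -5.53 (range -7.28 to -1.98). The lipid transfer gene Solyc09g082300 was the lowest, with 0.209, 0 and 3.98 CPM in protoplasted libraries 1, 2 and 3, against 63.8, 251 and 381 CPM in whole-root libraries 1, 2 and 3. The laccase gene Solyc05g052370 had a log2 fold change of -5.78 and the 3-ketoacyl-CoA synthase gene Solyc08g067260 one of -4.80. The P450 gene Solyc07g062500 fell least, with 53.4, 54.9 and 66.1 CPM in protoplasted libraries 1, 2 and 3, against 220.2, 238 and 229.5 CPM in whole-root libraries 1, 2 and 3.

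Within each group, most of the genes peaked in the same library. In protoplasted roots, 33 of the 41 genes were highest in replicate 3, 5 in replicate 2 and 3 in replicate 1. In whole roots, 29 were highest in replicate 3, 10 in replicate 1 and 2 in replicate 2. Loci within 50 locus numbers of these genes and off the trajectory list peaked in replicate 3 less often. The share over all genes tested was not counted. Of 210 such loci tested, 81 peaked there among protoplasted libraries and 101 among whole-root libraries. How far the pattern is particular to the 41 genes was not tested. Set against the whole-root mean of each gene, the median left in protoplasted libraries 1, 2 and 3 was 0.576%, 1.30% and 4.20% over the 40 genes tested. The median over the same genes without protoplasted replicate 3 was a log2 fold change of -6.77 (41 genes tested in that fit), and without whole replicate 3 it was -5.13. Leaving out protoplasted replicate 3 moved the fold change of 23 genes by over 1.5 times, leaving out whole replicate 3 moved 10, whole replicate 1 moved 6, protoplasted replicate 2 moved 2, protoplasted replicate 1 moved 1 and whole replicate 2 moved 0. The 10 genes highest in whole-root replicate 1 were Solyc09g065440, Solyc06g076800, Solyc10g075100, Solyc02g090210, Solyc01g106920, Solyc05g056450, Solyc08g078030, Solyc03g114750, Solyc02g069730 and Solyc06g060250, of which 4 belong to the module. The family of PELPK, PELP and hydroxyproline-rich genes had 9 of 9 highest in whole-root replicate 3, and both transcription factor genes were highest there too. The suberin markers also took their largest share in replicate 3 of each group, 0.00485% in protoplasted and 0.283% in whole roots, and the part of tip length or cell makeup in these differences was not tested.

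**Figure D4:**
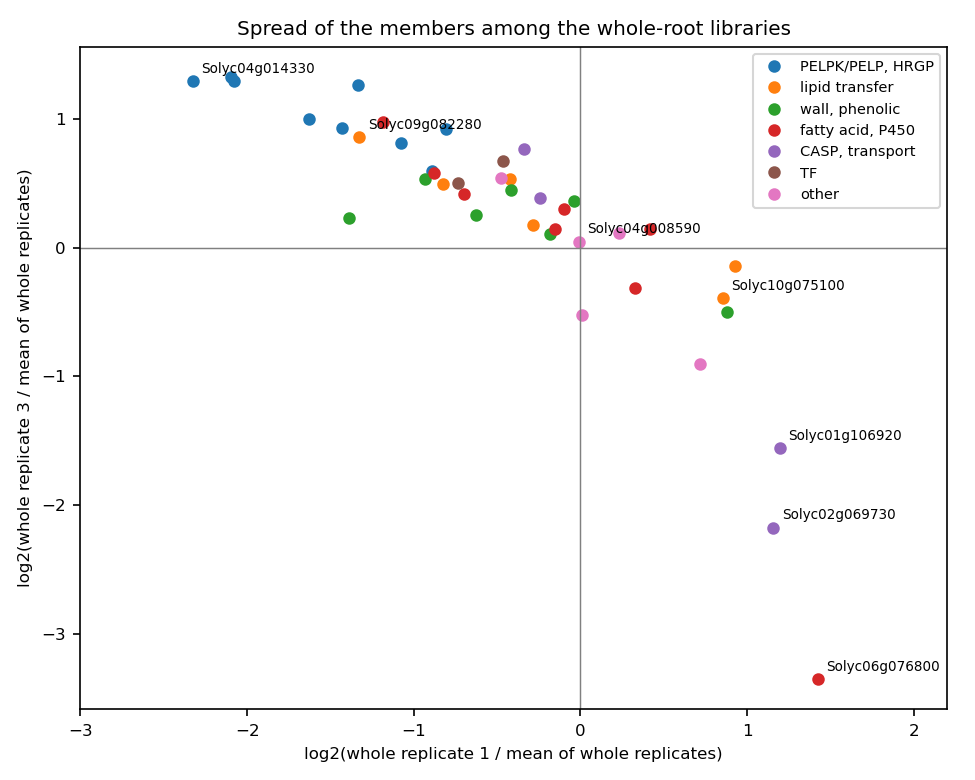
Each of the 41 genes by the log2 ratio of whole-root replicate 1 (x axis) and replicate 3 (y axis) to its mean over the 3 whole-root libraries, coloured by family. Most genes lie to the upper left, higher in replicate 3, and 10 genes highest in replicate 1 lie to the right, with the P450 gene Solyc06g076800 farthest down.

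The loci next to these genes were also counted. Of the 335 loci within 50 locus numbers of one of the 41 genes and not on the trajectory list, 210 were tested, 41 (19.5%) were lower and 31 were higher, with a median log2 fold change of 0.05. The share was near the 18.7% of all genes tested. Around the 3 groups of neighbouring PELPK, hydroxyproline-rich and lipid transfer genes, however, 4 of 10 tested neighbours (40.0%) were lower and 1 was higher, with a median of -0.80, and 60.0% had all protoplasted libraries below all whole-root libraries, against 25.6% of all genes tested. Around the other genes, 37 of 200 (18.5%) were lower, with a median of 0.08. The difference rests on the 10 loci beside the groups and was not tested. Individual neighbours did fall as far. Solyc04g014350, beside the PELPK genes, had 0.209, 0 and 4.35 CPM in protoplasted libraries 1, 2 and 3, against 18.4, 20.2 and 213 CPM in whole-root libraries 1, 2 and 3 (log2 fold change -5.69 ± 1.36 SE), with the same high value in replicate 3. Solyc01g100760, a neighbour of Solyc01g100770, had a log2 fold change of -5.65, and Solyc09g082300, the lipid transfer gene named above, lies near Solyc09g082280. Solyc04g007760, near the PELP gene Solyc04g007810, had the lowest value of all neighbours, -7.96 ± 1.41 SE. No annotation was at hand for Solyc04g014350, Solyc01g100760 or Solyc04g007760 in the tables used. These 4 neighbours were picked for their values.

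**Figure D5:**
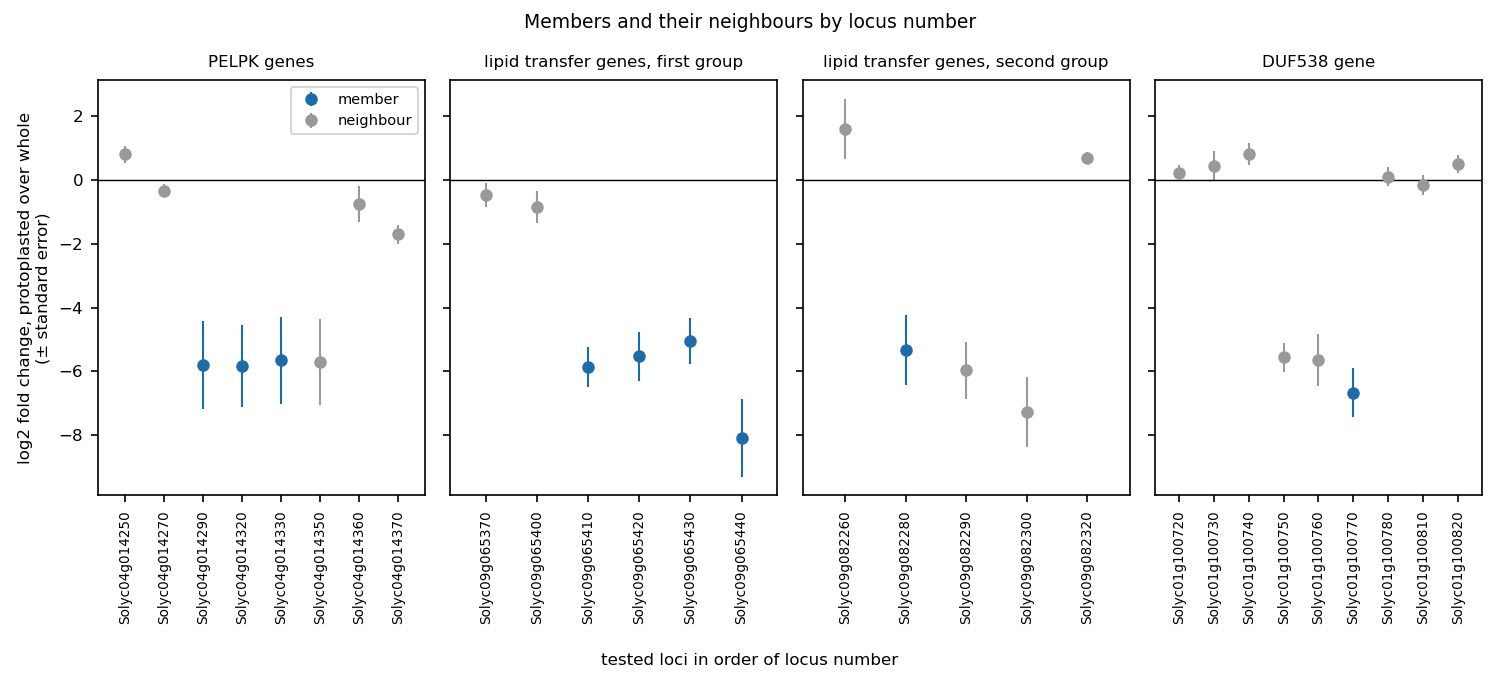
Log2 fold change, protoplasted over whole roots, with its standard error for tested loci in order of locus number (x axis) around 4 groups of the described genes (blue), with neighbours in grey; the 4 groups were chosen after their values were seen. Low values stand in short runs of consecutive loci, and the flanking loci lie above -2.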

How the data were processed

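Samples were assigned to groups and replicates by their labels, and columns by their names. The genes came from the study's supplementary lists of loci and annotations, and no value was taken from them. The genes, families and lists were chosen with earlier results of these data known. Per the labels and the study's methods, the authors made 3′ tag libraries, trimmed reads with Trim Galore 0.6.6, pseudo-aligned read 1 to the ITAG4.1 transcriptome with kallisto 0.46.2 and deposited estimated counts per gene model, without normalization. Kallisto divides reads among similar transcripts: 9 of the 41 genes had values that were not whole (tolerance 0.01) in at least 1 library.

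Counts, rounded to whole numbers, went into edgeR 4.0.16 (R 4.3.3) with filterByExpr (minimum count 10, minimum total 15), TMM normalization, and the quasi-likelihood test of protoplasted over whole, adjusted by Benjamini-Hochberg over 15966 genes. No gene list was tested as a set. At most 3 counts in each library was taken as the floor: 7 of the tested genes were there in protoplasted roots, their fitted fold changes depend on the prior count, and with them set to the floor the median log2 fold change was -5.51. Intervals of count ratios cover counting error only. Families were formed from the annotations. Values in every library are given for the most abundant genes of each family, the 3 lowest and 3 highest fold changes, genes not tested or not called, and genes with neighbouring locus numbers (at most 100 apart); other genes are given by fold change, with values of some chosen after they were seen.

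Across the genes tested, deviations from group means in same-numbered libraries of the 2 groups had correlations of 0.429, 0.114 and 0.538 for replicates 1, 2 and 3. Libraries of unlike number were not compared, so a pairing was not shown. The numbers were taken as pairs in 1 alternative. The labels name no shared batch, and nothing says that replicates came from separate cultures, so p-values measure the spread between these samples. Within a group, libraries differed by more than counting noise in every pair (lowest chi-square divided by its degrees of freedom, 13.2). None was therefore the same library counted again, but separate libraries from shared RNA or cells could differ in this way too. The tests were checked on simulated data, in which the changes were smaller than most falls described here. That check does not cover falls to near 0 counts. Other settings tried were DESeq2 1.42.0, voom from limma 3.58.1, the replicate block, summed neighbouring loci, each library left out, and changed filters or scaling. The reference table of genes matched 0 of the ITAG4.1 identifiers, so positions and sequences were not used here, and chromosomes are those in the locus names.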

Additional observations from a re-analysis of the deposited data

How the results depend on the processing

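With the replicate number as a block, 39 genes were lower and 35 were under -2 (median -5.93), and no call changed. Over 16 alternatives, 34 of the 39 called genes kept the call wherever they were tested and given an adjusted p, and 8 of 593 values missed the threshold. A filter of at least 10 counts in every library left 11 genes, of which 10 were lower, 7 were under -2 and 10 did not overlap (median -2.54), because it removes genes near 0 in protoplasted roots. Limma-voom lost Solyc06g076800, Solyc04g014290 (adjusted p = 0.0667) and Solyc02g069730. DESeq2 called 37 genes and gave no adjusted p to Solyc04g014290 and Solyc04g014320. Leaving out 1 library gave 36 to 40 lower genes, 33 to 38 under -2, 39 to 40 not overlapping and medians of -6.77 to -5.13. The log2 fold change of Solyc04g008590 was between -0.24 and 0.091 with 1 library left out, without a call in either direction. Without Solyc09g082280, an alternative chosen after the data were seen, the 41 genes' share in whole roots was 0.591%. With library size alone as scaling, the median of all genes was -0.14 with 3447 lower and 1887 higher, and 39 of the genes described were lower. Low counts in protoplasted roots limit how far the largest falls can be measured.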
